A study of Mus musculus with 4 samples.

Results

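The genes described here copy the genome and divide the cell: 12 that control entry into S phase, the part of the cell cycle in which DNA is copied, 18 that carry out DNA replication and 25 that act in mitosis. They were picked by gene symbol in the platform annotation, and each gene was read from its brightest probe set that names 1 gene, judged by the mean over the 4 arrays. Of the 55 genes listed, 54 had such a probe set, among 18193 genes on the array, and the mitotic cyclin Ccnb1 had none in the annotation used here. Of the 54, 38 had a mean at or above a level floor of 6.39, the median of all deposited values, as had 11264 of all 18193 genes. All values are on the log2 scale, so that a difference of 1.0 is 2-fold.

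RNA came from macrophages of mice whose peritoneal cavity had been treated with thioglycolate, which irritates it and draws in monocytes, and the cells were kept for 18 hours on permanox, a plastic slide. The 4 groups were Dap12-KO with IL-4, Dap12-KO untreated, WT with IL-4 and WT untreated, with 1 array each. DAP12 is an adaptor protein encoded by Tyrobp that carries the signals of partner receptors in myeloid cells, and IL-4 is a cytokine that drives alternative activation of macrophages. The series states its aim as measuring how loss of DAP12 acts on expression at rest and on the answer to IL-4. The labels say Dap12-KO and the design text speaks of a knockdown. How DAP12 was removed, the dose of IL-4, the strain, age and number of mice and any pooling are not given in the sources used here.

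Cells that leave the cell cycle keep the E2F transcription factors bound by the retinoblastoma family. D-type cyclins with Cdk4 and Cdk6, then cyclin E with Cdk2, lift that block, and E2F then turns on the genes that license and copy DNA. Mitotic genes come on later through promoter elements bound by the DREAM and MuvB complexes, the CHR element among them. Most macrophages drawn into an inflamed cavity divide little, and IL-4 is known in mice to drive division of tissue macrophages in place.

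Tyrobp, the targeted gene, gave 13.27 and 14.03 on the arrays labelled Dap12-KO with IL-4 and untreated, and 14.13 and 14.39 on the WT arrays with IL-4 and untreated. It was bright on all 4, the position of its probes relative to any deletion is not known here, and every genotype direction below rests on the labels. All 9 measured macrophage markers reached the floor on all 4 arrays, with medians between 12.22 and 13.06. Markers of other cells were present too: 6 of 7 B cell markers, 4 of 7 dendritic cell, 3 of 7 T and NK cell, 3 of 6 neutrophil, 3 of 6 mast cell, 1 of 5 eosinophil and 3 of 10 mesothelial and fibroblast markers had a mean at the floor. Summed on the linear scale, the B cell markers stood at 3140 on the Dap12-KO array with IL-4 and 5084 on the untreated Dap12-KO array, against 3729 and 3508 on the WT arrays with IL-4 and untreated. In the same order the mast cell markers summed to 598 and 1083 against 503 and 574, and the mesothelial and fibroblast markers to 902 and 637 against 928 and 1004. The macrophage markers summed to 7.551e+04 and 1.103e+05 against 8.888e+04 and 1.018e+05. The T and NK cell markers summed to 527 and 613 against 595 and 488. The untreated Dap12-KO array is thus highest for macrophage, B, mast, and T and NK cell markers. It is lowest for mesothelial and fibroblast, dendritic cell (685.5) and eosinophil (309.5) markers. The brightest B cell marker there was Cd22, at 11.43. The part of other cells in the values of the cell cycle genes was not tested. The Dap12-KO array with IL-4 stood apart, since its values spanned 2.54 between the lower and the upper quartile, against 3.19 to 3.25 on the others. Bright genes are lower and dim genes higher on that array: the median of 29 genes of other tissues was 6.79 there, against 6.42 on the untreated Dap12-KO array and 6.13 and 6.18 on the WT arrays with IL-4 and untreated. Of the 5 differences described below 3 use this array, so for each of these the median of all genes is given. Counts and medians after cyclic loess, a scaling that removes intensity-dependent differences between arrays, are given too. Values of single genes are as deposited unless cyclic loess is named. The width of the array was not separated from IL-4 or genotype by any replicate.

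Promoters are shown first because the replication and mitosis genes held different elements in them. The windows, from RefSeq on GRCm38.p6, run from 250 bases before to 50 after each gene's start, and 45 of the 55 genes have one. An E2F match was any of the 8-base forms TTTCCCGC, TTTCGCGC, TTTGCCGC and TTTGGCGC, a CHR match was TTTGAA, both were searched on both strands, and E2F forms can overlap each other. The replication genes Mcm5 and Mcm6, which encode subunits of the replicative helicase, are shown with E2F matches in capitals. The Mcm5 stretch is chr8:75109349-75109467 on the plus strand and the Mcm6 stretch chr1:128359706-128359865 on the minus strand.
Mcm5: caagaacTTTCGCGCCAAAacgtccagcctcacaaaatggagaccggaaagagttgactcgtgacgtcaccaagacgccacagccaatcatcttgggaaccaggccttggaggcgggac
Mcm6: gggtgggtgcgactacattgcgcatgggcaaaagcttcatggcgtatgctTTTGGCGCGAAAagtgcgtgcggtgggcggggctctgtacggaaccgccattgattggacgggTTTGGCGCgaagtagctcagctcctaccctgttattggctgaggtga
The mitosis genes Cdk1, the kinase that starts mitosis, Cdc20, an activator of the ligase that ends it, and Mki67, which coats mitotic chromosomes, are shown with CHR matches in capitals. All lie on the minus strand, at chr10:69352913-69353072, chr4:118437344-118437503 and chr7:135716451-135716539. Each stretch is written 5′ to 3′ along its gene and holds only bases upstream of the annotated gene.
Cdk1: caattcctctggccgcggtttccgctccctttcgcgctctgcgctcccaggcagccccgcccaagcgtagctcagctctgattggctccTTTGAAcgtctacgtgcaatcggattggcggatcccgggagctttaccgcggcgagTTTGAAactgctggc
Cdc20: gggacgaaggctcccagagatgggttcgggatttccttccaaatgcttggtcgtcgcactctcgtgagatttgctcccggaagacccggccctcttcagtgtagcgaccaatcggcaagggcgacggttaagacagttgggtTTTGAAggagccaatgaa
Mki67: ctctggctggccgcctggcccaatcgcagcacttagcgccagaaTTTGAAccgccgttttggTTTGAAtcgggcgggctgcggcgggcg

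An E2F match lay in 8 of 16 replication promoters (50%), namely Cdc6, Cdt1, Mcm3, Mcm5, Mcm6, Mcm7, Orc1 and Pola1. It lay in 2 of 20 mitosis promoters (10%), Cdk1 and Ncapg2, in 1 of 9 S phase control promoters (11.1%), Cdk2, and in 2.6% of 27025 genes with a window. CHR ran the other way. It was found in 13 of 20 mitosis promoters (65%), in 2 of 16 replication promoters (12.5%), Fen1 and Mcm2, and in 1 of 9 control promoters (11.1%), E2f8, against 20.2% of all genes. Per window of the same length, 2.26% of 32851 held an E2F match and 17.9% a CHR match. Further genes of the same processes kept the CHR contrast, with 31 of 50 mitosis genes (62%) against 6 of 34 replication genes (17.6%), and had E2F matches in 5 of 50 (10%) and 8 of 34 (23.5%). CCAAT, a general promoter element, was found in 15 of 20 mitosis promoters (75%), 11 of 16 replication promoters (68.8%), 4 of 9 control promoters (44.4%) and 41.1% of all genes. A match is a run of letters and not a measured site.

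**Figure D1:**
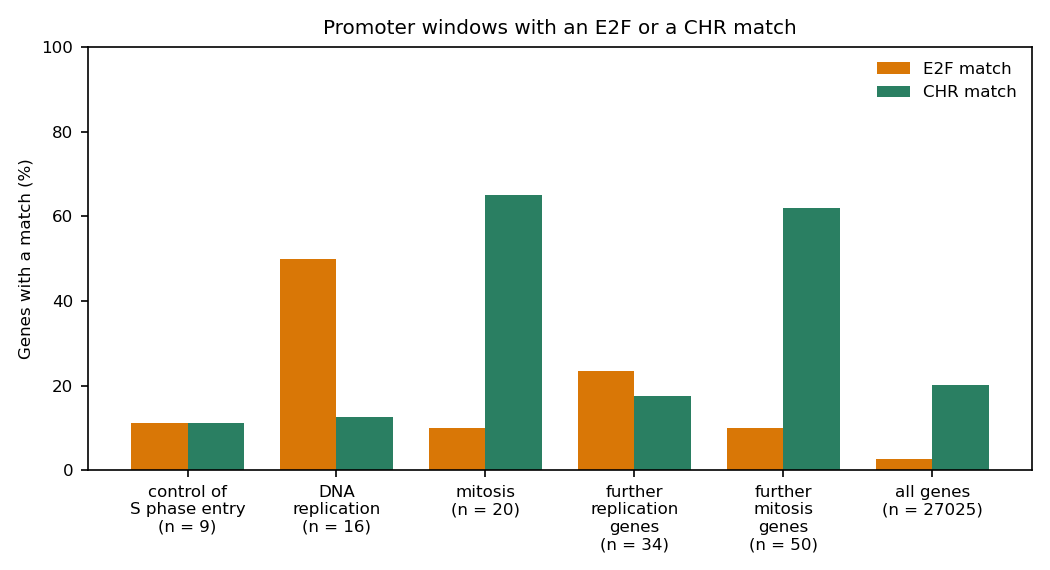
Share of genes, in percent, whose RefSeq promoter window holds an E2F match (orange) or a CHR match (green), for the 3 role groups, for further replication and mitosis genes and for all genes with a window. The E2F share is 50% for DNA replication and 10% for mitosis, and the CHR share is 12.5% for DNA replication and 65% for mitosis.

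Replication and mitosis genes also differed in how many lay near background. By the mean over the 4 arrays, 11 of 24 measured mitosis genes (45.8%), 4 of 18 replication genes (22.2%) and 1 of 12 control genes (8.33%) were below the floor, in all 16 of 54 (29.6%), against 38.1% of all 18193 genes. On all 4 arrays 14 were below it (9, 4 and 1 in the same order), 35 were above it on all 4 (11, 13 and 11), and 5 crossed it (4, 1 and 0). A second yardstick was the 95th percentile of the 29 genes of other tissues on each array, and 20 genes stayed under it on all 4 arrays, of which 14 were mitosis, 4 replication and 2 control genes. The array gives no detection call, probe sets differ in brightness for the same amount of RNA, and a dim value is thus not a measure of absence.

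The mitosis genes near background include several kinases and motors, though Cdk1 and the kinase-related checkpoint protein Bub1b lay above the floor on all 4 arrays. Plk1, the Polo kinase of mitotic entry, read 6.35 and 6.34 on the Dap12-KO arrays with IL-4 and untreated, and 6.34 and 6.29 on the WT arrays with IL-4 and untreated. Aurkb, the Aurora kinase of the chromosomal passenger complex, read 5.22 and 5.26 on the Dap12-KO arrays and 5.25 and 4.97 on the WT arrays in the same order. Their values are nearly flat, and so are those of the checkpoint kinase Bub1 (5.05 to 5.39), the kinesin Kif20a (4.76 to 5.14), the spindle motor Kif11 (5.79 to 6.23) and the Aurora kinase Aurka (6.05 to 6.36). Birc5, or survivin, read 6.46 and 5.84 on the Dap12-KO arrays with IL-4 and untreated, against 5.47 and 5.69 on the WT arrays with IL-4 and untreated. Cenpe, a kinetochore motor, was above the floor on both IL-4 arrays, at 6.60 in Dap12-KO and 6.48 in WT, and below it untreated, at 5.94 in Dap12-KO and 5.90 in WT. Of the rest, the spindle protein Nusap1 (5.18 to 5.84) and the ubiquitin-conjugating enzyme Ube2c (5.72 to 6.37) had their highest value on the Dap12-KO array with IL-4, as Birc5 and Kif11 did, and the B-type cyclin Ccnb2 (at most 6.39) did not. On that array dim genes are higher as a class, as the genes of other tissues show.

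Among replication genes the floor was missed by Rrm2, the small subunit of ribonucleotide reductase (5.22 to 5.78), Tyms, thymidylate synthase (5.02 to 5.72), and the licensing factors Cdc6 (4.79 to 4.98) and Orc1 (6.12 to 6.28). These are made mainly in cycling cells. Among the control genes it was missed by Ccne2, a cyclin E, at 4.61 to 4.95. Well above the floor were Pcna, the sliding clamp of the polymerases, at 13.39 and 13.71 on the Dap12-KO arrays with IL-4 and untreated and 14.08 and 14.03 on the WT arrays with IL-4 and untreated. Cdkn1a, the p21 inhibitor of cyclin-dependent kinases, gave 12.52 and 12.14 on the Dap12-KO arrays, against 12.76 and 12.77 on the WT arrays, in the same order. Both genes also act outside S phase, Pcna in DNA repair and Cdkn1a in arrested cells.

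**Figure D2:**
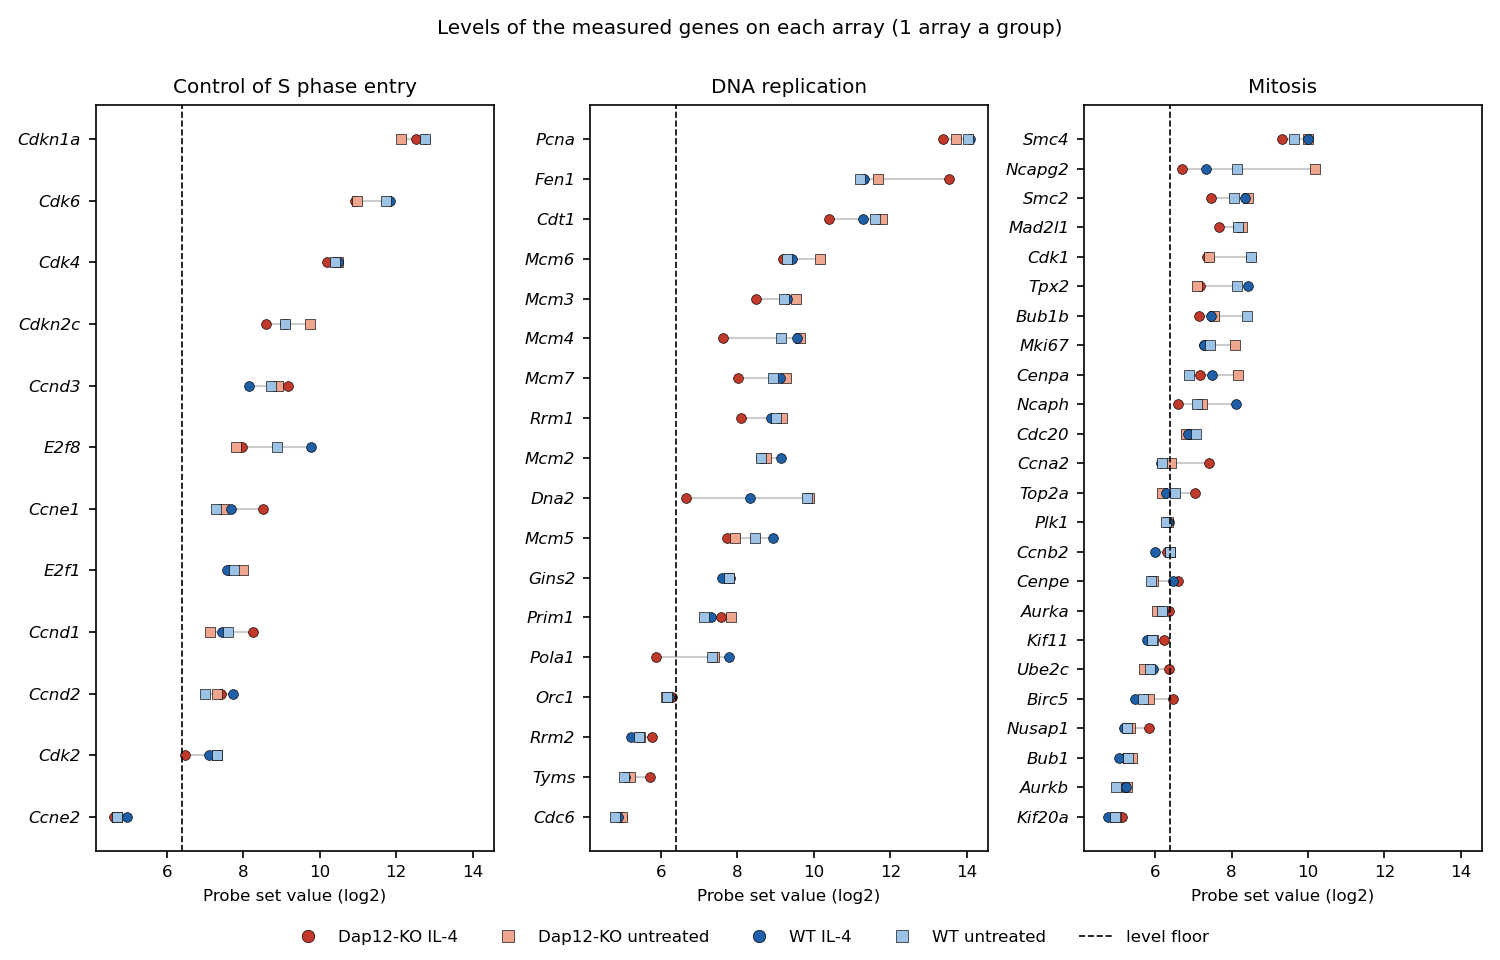
Log2 probe set value of each measured gene on the 4 arrays, with Dap12-KO in red and WT in blue, IL-4 as circles and untreated as squares, and the level floor of 6.39 as a dashed line. The mitosis panel has 11 of 24 genes with a mean left of the line, the replication panel 4 of 18 and the S phase control panel 1 of 12. Positions of different genes on the axis are not comparable as amounts.

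IL-4 on the arrays labelled Dap12-KO gave the widest differences among the cell cycle genes, and most were in replication genes. Of the 38 genes at the floor, 3 were 2-fold or more higher with IL-4 and 9 lower, where 5.9% of all 11264 genes were higher and 19.5% lower. The lower share of the 38 is thus close to that of all genes, and their median of -0.35 lay 0.14 above the all-gene median of -0.48. After cyclic loess the median was 0.07, and so its sign is not settled, with 3 genes higher and 4 lower beside 9.63% and 6.06% of all genes. With no floor, 3 of 54 were higher and 9 lower, beside 5.9% and 12.4% of 18193 genes. The replication genes had 1 higher and 7 lower of 14 with a median of -1.01, which lay 0.53 below all genes. The mitosis genes had 0 higher and 1 lower of 13 with a median of -0.59 (-0.03 after cyclic loess), and the control genes 2 higher and 1 lower of 11 with a median of 0.10 (0.51 after cyclic loess). After cyclic loess the all-gene median was 0.04 and the replication median -0.34, with 1 gene higher and 3 lower. That median lay 0.38 below all genes, and 8 of the 14 genes were below the all-gene median under each scaling. With 1 array a group no test between these arrays is possible. In RNA from a whole culture fewer dividing cells and less RNA per cell cannot be told apart.

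Helicase subunits were among the lower replication genes as deposited. Mcm4 read 7.61 on the Dap12-KO array with IL-4 and 9.65 on the untreated one, against 9.55 and 9.15 on the WT arrays with IL-4 and untreated. The first of these stands alone below the other 3, and IL-4 was 4.10-fold lower on the Dap12-KO arrays (-2.03, or -1.37 after cyclic loess) and 1.32-fold higher on the WT arrays (0.40). A second Mcm4 probe set gave -1.39 on the Dap12-KO arrays (-0.75 after cyclic loess). Mcm7 read 8.01 with IL-4 and 9.27 untreated on the Dap12-KO arrays, against 9.12 with IL-4 and 8.92 untreated on the WT arrays. Its difference of -1.26 in Dap12-KO was shared in sign by other Mcm7 probe sets at -0.79 and -0.53, while another gave 0.74. After cyclic loess the set used gave -0.61, and the others -0.34, -0.38 and 1.04 in the same order. Mcm3 had -1.05 in Dap12-KO and 0.07 in WT, from 8.48 with IL-4 and 9.53 untreated on the Dap12-KO arrays. Other Mcm3 sets at the floor gave -1.03, -0.38 and -0.30 in Dap12-KO. After cyclic loess the set used gave -0.38, and the others -0.47, 0.01 and 0.36 in the same order. Mcm6 missed 2-fold at -0.98 in Dap12-KO (9.18 with IL-4, 10.16 untreated) and 0.12 in WT, and another set passed it at -1.47 in Dap12-KO. After cyclic loess these Mcm6 sets gave -0.31 and -0.83 in Dap12-KO. Mcm2 (-0.13 in Dap12-KO, 0.52 in WT) and Mcm5 (-0.22 and 0.46) were nearer to 0 in Dap12-KO, and after cyclic loess their Dap12-KO differences were 0.52 and 0.36. The subunits form a single ring, and their signals did not move as one block.

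Some licensing, priming and nucleotide supply genes were lower with IL-4 in Dap12-KO too. Cdt1, which loads the helicase, read 10.40 with IL-4 and 11.79 untreated on the Dap12-KO arrays, against 11.29 with IL-4 and 11.59 untreated on the WT arrays. The difference was -1.39 in Dap12-KO, with -1.30 from a second probe set, and -0.30 in WT. After cyclic loess these Cdt1 sets gave -0.80 and -0.63 in Dap12-KO. Pola1, the catalytic subunit of the primase-polymerase that starts each strand, read 5.86 with IL-4 and 7.39 untreated on the Dap12-KO arrays, against 7.79 with IL-4 and 7.34 untreated on the WT arrays. Only the first of these lies under the floor, and the difference of -1.52 (-1.34 after cyclic loess) in Dap12-KO met one of 0.45 in WT. Its partner Prim1 gave -0.27 in Dap12-KO and 0.18 in WT, with -1.05 in Dap12-KO from another set. Rrm1, the large subunit of ribonucleotide reductase, gave -1.07 in Dap12-KO (-0.42 after cyclic loess) and -0.12 in WT, with -0.13 in Dap12-KO from another set. Gins2, a part of the active helicase, read 7.61 to 7.81 on all 4 arrays, with differences of 0.02 in Dap12-KO and -0.16 in WT.

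The flap nucleases Dna2 and Fen1, which trim the ends of Okazaki fragments, both passed 2-fold with IL-4 in Dap12-KO in the sets used, with opposite signs. Dna2 read 6.65 with IL-4 and 9.87 untreated on the Dap12-KO arrays, against 8.33 with IL-4 and 9.81 untreated on the WT arrays. Both IL-4 arrays lay below both untreated arrays, with differences of -3.22 in Dap12-KO and -1.49 in WT. The 6.65 lies under the median of the genes of other tissues on that array (6.79), so the size in Dap12-KO is set against a value at background, which also holds for Cdk2, Pola1, Ncapg2 and Ncaph. A second Dna2 probe set gave -1.28 in Dap12-KO and -1.20 in WT, while the last, below the floor, gave 0.005 in Dap12-KO and -0.43 in WT. Fen1 read 13.53 with IL-4 and 11.69 untreated on the Dap12-KO arrays, against 11.31 with IL-4 and 11.22 untreated on the WT arrays. That is 3.59-fold higher with IL-4 in Dap12-KO (1.84) and 0.09 in WT. The other Fen1 probe set went the opposite way, at 6.47 with IL-4 and 8.07 untreated on the Dap12-KO arrays, against 8.26 with IL-4 and 8.18 untreated on the WT arrays, a difference of -1.60 in Dap12-KO. The brighter set has an identifier that ends in _x_at, which marks probes that can match other transcripts, as do those of the Mcm4 and Ncaph sets used. Since its sets disagree, the direction of Fen1 is unsettled.

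In the S phase control group, the cyclins Ccnd1 and Ccne1 were 2-fold higher with IL-4 on the Dap12-KO arrays and the inhibitor Cdkn2c 2-fold lower. Ccnd1, cyclin D1, read 8.26 with IL-4 and 7.13 untreated on the Dap12-KO arrays, against 7.45 with IL-4 and 7.59 untreated on the WT arrays. Its difference was 1.12 in Dap12-KO (1.53 after cyclic loess) and -0.14 in WT, and its other probe set at the floor gave 0.70 in Dap12-KO. Ccne1, cyclin E1, read 8.51 with IL-4 and 7.50 untreated on the Dap12-KO arrays, against 7.67 with IL-4 and 7.29 untreated on the WT arrays. Both IL-4 arrays lay above the untreated array of their genotype, by 1.01 in Dap12-KO and 0.38 in WT. Cdkn2c, the p18 inhibitor of Cdk4 and Cdk6, read 8.59 with IL-4 and 9.74 untreated on the Dap12-KO arrays, against 9.10 on each WT array. The -1.14 in Dap12-KO came with 0.00 in WT, and it was -0.48 after cyclic loess. Ccnd2 gave 0.10 in Dap12-KO and 0.72 in WT, Ccnd3 gave 0.26 in Dap12-KO and -0.56 in WT, and Cdk2, the partner of cyclin E, gave -0.83 in Dap12-KO and -0.21 in WT. The sets used read 10.19 to 10.48 for Cdk4 and 7.59 to 7.99 for the activator E2f1. With IL-4 in Dap12-KO, however, another set of Cdk4 gave -0.80 and another of E2f1 -1.03. After cyclic loess these other sets gave -0.16 and -0.63.

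Of the mitosis genes 1 passed 2-fold with IL-4 on the Dap12-KO arrays in the sets used. Ncapg2, a subunit of condensin II, which folds chromosomes, read 6.70 with IL-4 and 10.18 untreated on the Dap12-KO arrays, against 7.32 with IL-4 and 8.15 untreated on the WT arrays. The untreated Dap12-KO array stands alone at the top, the difference was -3.48 in Dap12-KO and -0.83 in WT, and the gene has 1 probe set. The 6.70 also lies under the median of the genes of other tissues on its array. The core condensin subunits Smc2 and Smc4 gave -0.98 and -0.69 in Dap12-KO, and 0.29 and 0.38 in WT. Smc2 read 7.46 with IL-4 and 8.44 untreated on the Dap12-KO arrays, against 8.36 with IL-4 and 8.07 untreated on the WT arrays. Ncaph, of condensin I, gave -0.63 in Dap12-KO and 1.04 in WT. In the sets used none of Smc2, Smc4 and Ncaph passed 2-fold in Dap12-KO, where 72.9% of all genes were below 0. After cyclic loess these sets were at -0.43 for Smc2, -0.03 for Smc4 and -0.37 for Ncaph. Other Smc4 sets at the floor gave -0.93 and -1.54 in Dap12-KO, and -0.26 and -1.28 after cyclic loess. Another Smc2 set at the floor gave -0.14 (-0.05 after cyclic loess). Mki67 gave -0.82 in Dap12-KO and -0.16 in WT. Cenpa, the histone H3 variant that marks centromeres, read 7.19 with IL-4 and 8.18 untreated on the Dap12-KO arrays, against 7.49 with IL-4 and 6.89 untreated on the WT arrays. Its difference was -0.99 in Dap12-KO (-0.65 after cyclic loess) and 0.60 in WT. Another Cenpa set at the floor gave 0.27 in Dap12-KO, with the opposite sign, and 0.01 in WT. The spindle checkpoint protein Mad2l1 read 7.67 on the Dap12-KO array with IL-4 and 8.17 to 8.26 on the other 3. Its difference with IL-4 in Dap12-KO was -0.59, and -0.05 after cyclic loess. In the sets used Cdk1, Cdc20 and Tpx2 gave -0.05, 0.09 and 0.07 with IL-4 in Dap12-KO, and 0.46, 0.18 and 0.51 after cyclic loess, and another set of Tpx2 gave 0.90. Higher with IL-4 in Dap12-KO were Ccna2, the cyclin of S phase and mitosis (0.99, against -0.03 in WT), and Top2a, the topoisomerase that untangles chromosomes (0.85, against -0.23 in WT). Ccna2 read 7.41 with IL-4 and 6.42 untreated on the Dap12-KO arrays, against 6.15 with IL-4 and 6.18 untreated on the WT arrays. Top2a read 7.04 with IL-4 and 6.19 untreated on the Dap12-KO arrays, against 6.29 with IL-4 and 6.52 untreated on the WT arrays. For both genes 3 of 4 values of the set used lie close to the floor. The array that is higher is the one on which dim genes are higher. After cyclic loess the sets used gave 0.90 for Ccna2 and 0.75 for Top2a in Dap12-KO. A second Top2a set at the floor gave 1.92 in Dap12-KO (1.77 after cyclic loess) and -0.19 in WT. Sets below the floor gave 0.20 for Ccna2 and -0.10 for Top2a in Dap12-KO. The part of the array's width in these differences was not tested.

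On the WT arrays IL-4 left the group close to level. Of 38 genes 1 was 2-fold higher and 1 lower with IL-4, beside 1.27% and 1.37% of all genes, and the median was 0.06, against -0.03 for all genes. After cyclic loess 1 was higher and 1 lower, beside 1.36% and 1.21% of all genes. The gene higher was Ncaph, at 8.13 with IL-4 and 7.09 untreated, and its other probe set, below the floor, gave -0.05. The gene lower was Dna2. Replication genes had a median of 0.10, mitosis genes 0.00 and control genes 0.00. The nearest to 2-fold among the others were the atypical repressor E2f8 at 0.88 and the checkpoint protein Bub1b at -0.94, which read 7.45 with IL-4 and 8.39 untreated.

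**Figure D3:**
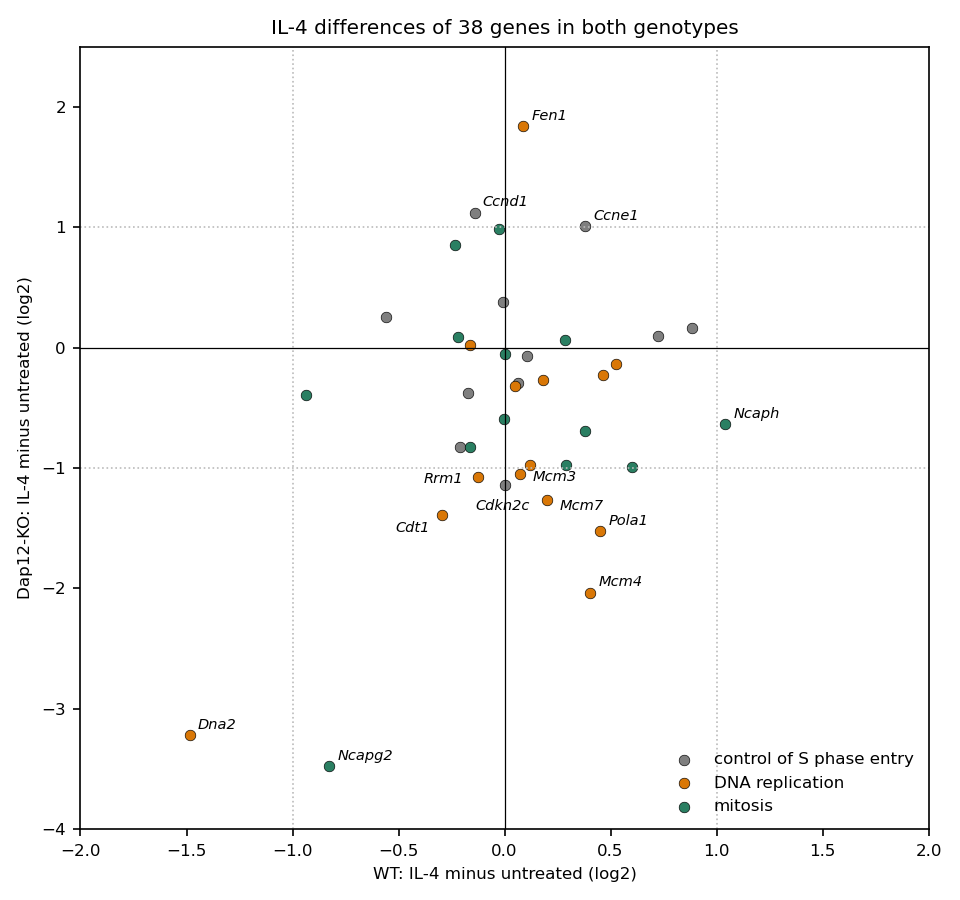
Difference of IL-4 and untreated arrays (log2) for the 38 genes at the floor, with Dap12-KO on the vertical axis and WT on the horizontal axis, coloured by role, and with dotted lines at 2-fold. Dna2 and Ncapg2 are negative on both axes, while Mcm4 and Pola1 are below -1.5 in Dap12-KO and at 0.40 and 0.45 in WT. The axes differ in scale.

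Only the mean effect of IL-4 in the 2 genotypes could be tested, with limma on all 4 arrays, a term for genotype and Benjamini-Hochberg adjustment over 11264 genes. It called 0.613% of genes as risen and 1.31% as fallen, and of the 38 genes 0 rose and 2 fell. Dna2 fell by 2.35 (SE 0.42, adjusted p = 6.97e-06, lower with IL-4 in both genotypes). Ncapg2 fell by 2.15 (SE 0.42, adjusted p = 6.52e-05, lower with IL-4 in both genotypes). At an unadjusted p under 0.05 there were 4 of the 38, beside 1198 of all 11264 genes, which is close to the same share. Besides Dna2 and Ncapg2 these were Fen1 (0.96, adjusted p = 0.309) and Cdt1 (-0.84, adjusted p = 0.439). The fit has 1 residual degree of freedom and gave every gene the same SE, pooled over all genes. That SE does not measure how far the 2 genotypes disagree for a given gene. The IL-4 differences in Dap12-KO and WT were -3.22 and -1.49 for Dna2, and -3.48 and -0.83 for Ncapg2. The p-values cover the spread among the 4 arrays alone, part of which may be technical. Both calls were lost after cyclic loess, where no gene of the array was called, 781 had an unadjusted p under 0.05, and the smallest adjusted p among the 38 was 0.475. The fitted effects there were -2.01 for Dna2 (SE 0.35, adjusted p = 0.475) and -1.86 for Ncapg2 (SE 0.57, adjusted p = 0.681).

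The difference between the 2 IL-4 responses, Dap12-KO minus WT, is made of the arrays already compared, so it adds no independent measurement. The genotype comparisons share the same 4 arrays. It was 2-fold or more in the positive direction for 4 of 38 genes and in the negative direction for 13, where all genes had 5.64% and 16.4%. The median was -0.62, against -0.43 for all genes. After cyclic loess 4 were positive and 6 negative, beside 8.57% and 5.65% of all genes. Replication genes had 1 positive and 7 negative of 14, with a median of -1.02 that lay 0.59 below all genes, and after cyclic loess 1 and 3, with a median that lay 0.45 below all genes. The mitosis genes had 2 positive and 5 negative of 13 with a median of -0.59, and the control genes 1 and 1 of 11 with a median of -0.20. After cyclic loess the mitosis median was -0.09 and the control median 0.25, with the opposite sign. Among the negative genes as deposited were the helicase genes Mcm4 (-2.44), Mcm7 (-1.46), Mcm3 (-1.12) and Mcm6 (-1.09). Pola1 (-1.98), Ncapg2 (-2.65) and Ncaph (-1.67) were others. After cyclic loess the helicase genes gave -1.81, -0.85, -0.50 and -0.46 in the same order. Pola1 then gave -1.83, Ncapg2 -2.15 and Ncaph -1.45. Of the 38 genes, 13 had IL-4 differences of opposite sign in the 2 genotypes and were 2-fold apart, beside 12.3% of all 11264 genes. No least size was set for either difference, and several of the WT differences were near 0. These 13 are among the 17 past 2-fold. Of all genes 635 were past 2-fold in the positive and 1845 in the negative direction, and 1383 of these had opposite signs. The 4 of the 38 past 2-fold in the positive direction were Fen1, Ccnd1 (1.27), Top2a (1.09) and Ccna2 (1.02).

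Without IL-4 the 2 genotypes differed in few of these genes. Of the 38, 2 were 2-fold higher on the array labelled Dap12-KO and 3 lower, beside 3.36% and 3.71% of all genes, with a median of 0.15 against 0.00 for all genes. Of 14 replication genes none passed 2-fold in either direction, and 12 were above 0, as were 5637 of all 11264 genes, with a median of 0.18. This comparison does not use the narrow array. After cyclic loess 2 were higher and 1 lower, beside 3.95% and 3.09% of all genes. The higher genes were both of mitosis. Ncapg2 was 4.09-fold higher (10.18 in Dap12-KO, 8.15 in WT), and Cenpa was 2.44-fold higher (8.18 in Dap12-KO, 6.89 in WT). A second Cenpa probe set gave 0.60.

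The lower genes without IL-4 were lower with IL-4 too. Cdk1 read 7.37 with IL-4 and 7.42 untreated on the Dap12-KO arrays, against 8.50 on each WT array. Both Dap12-KO arrays lay below both WT arrays, with differences of -1.13 with IL-4 and -1.08 untreated. Tpx2, a spindle assembly factor, read 7.18 with IL-4 and 7.11 untreated on the Dap12-KO arrays, against 8.42 with IL-4 and 8.13 untreated on the WT arrays. The groups again did not overlap in the set used, with -1.24 with IL-4 and -1.02 untreated. Another Tpx2 set at the floor gave -0.59 with IL-4 and -0.91 untreated. Sets below the floor gave 0.83 and 0.73 with IL-4, and -0.41 and -0.22 untreated. How many of all genes have genotypes that do not overlap was not counted. E2f8 read 7.96 with IL-4 and 7.80 untreated on the Dap12-KO arrays, against 9.76 with IL-4 and 8.88 untreated on the WT arrays, which gives -1.80 with IL-4 and -1.08 untreated. The second E2f8 probe set, below the floor on its mean, gave 1.73 with IL-4 and 0.73 untreated. Cdk6 missed 2-fold at -0.93 with IL-4 and -0.76 untreated, and all 3 of its probe sets were lower on both Dap12-KO arrays than on the WT arrays. After cyclic loess the untreated values of Cdk1, Tpx2 and E2f8 were -1.01, -0.96 and -0.99, and those with IL-4 were -0.59, -0.78 and -1.12. The genotypes are not tested, since nothing says that both arrays of a genotype are of different mice.

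With IL-4 the array labelled Dap12-KO was 2-fold higher than WT in 3 of the 38 genes and lower in 9, beside 7.21% and 19.6% of all genes. The median of -0.51 was close to the all-gene median of -0.48, and it was 0.05 after cyclic loess, against 0.08 for all genes. This comparison sets the narrow array against a wide one, and after cyclic loess 5 were higher and 4 lower, beside 11.2% and 5.39% of all genes. The higher ones were Fen1 (2.22), Ccna2 (1.25) and Ccnd3, cyclin D3 (1.01). Ccnd3 read 9.16 with IL-4 and 8.90 untreated on the Dap12-KO arrays, against 8.15 with IL-4 and 8.72 untreated on the WT arrays. Replication genes had 1 higher and 5 lower of 14 with a median of -0.81, mitosis genes 1 and 3 of 13 with -0.50, and control genes 1 and 1 of 11 with -0.29. After cyclic loess these medians were -0.17, 0.05 and 0.30, so that of the replication genes alone kept its sign. The lower replication genes were Mcm4 (-1.94), Pola1 (-1.93), Dna2 (-1.67), Mcm5 (-1.19) and Mcm7 (-1.11). After cyclic loess they gave -1.22, -1.74, -0.98, -0.57 and -0.41 in the same order. The lower mitosis genes were Ncaph (-1.54, or -1.27 after cyclic loess), Tpx2 (-1.24, or -0.78) and Cdk1 (-1.13, or -0.59).

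**Figure D4:**
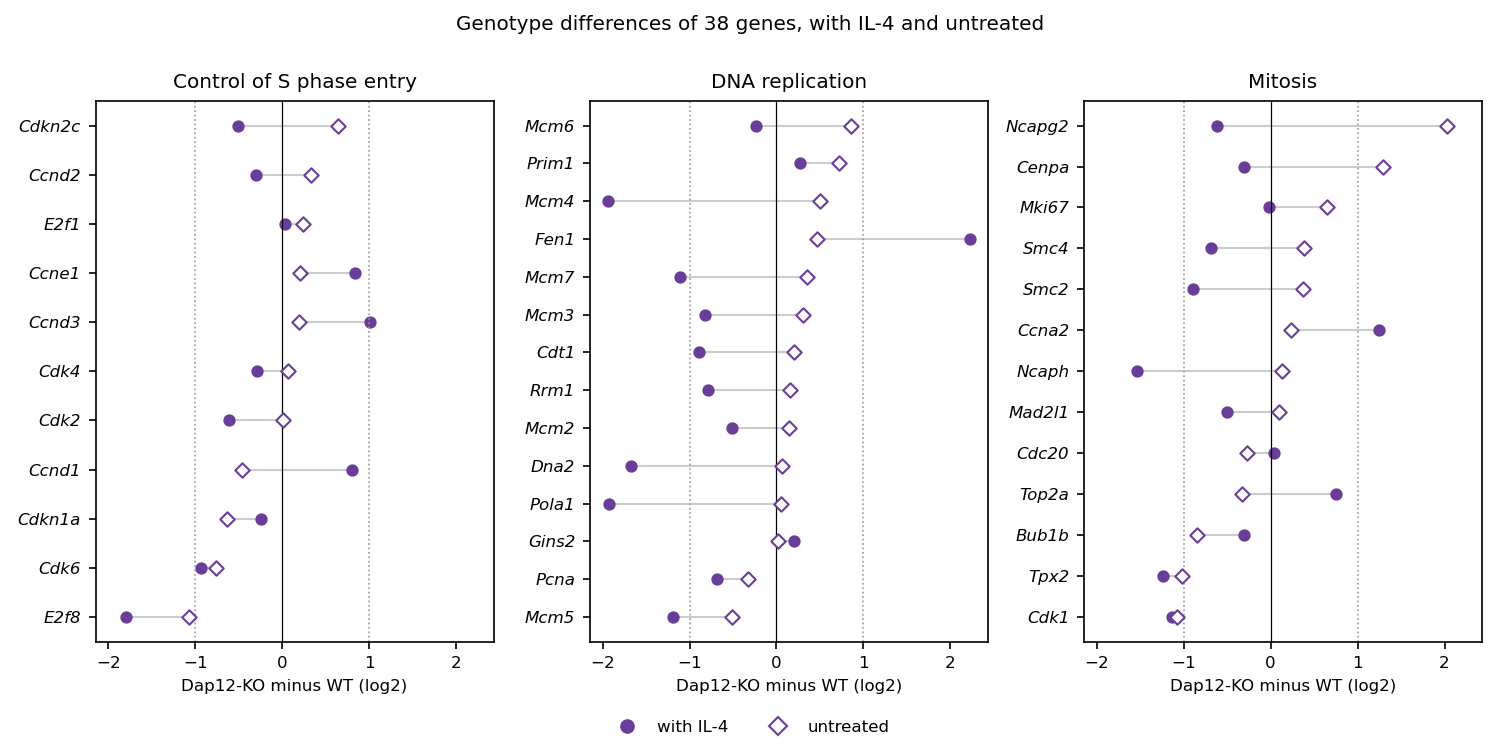
Dap12-KO minus WT (log2) for the 38 genes at the floor, with IL-4 (filled circles) and untreated (open diamonds), by role, with dotted lines at 2-fold. Cdk1, Tpx2 and E2f8 lie at or left of the 2-fold line in both conditions, while 12 of 14 replication genes are right of 0 untreated and 11 of 14 are left of 0 with IL-4 (9 of 14 after cyclic loess). Of all 11264 genes at the floor 5637 are above 0 untreated, and 8191 (72.7%) are below 0 with IL-4.

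Genes with several probe sets offer a check within the same arrays, though such sets share the RNA and are no replicates. The 54 genes have 129 probe sets between them, and 26 of the 38 have a further set at the floor. For IL-4 in Dap12-KO all further sets had the sign of the one used in 20 of 26 genes. Of the 9 of these that passed 2-fold, 4 had another set past 2-fold in the same direction, and 2 had one of the opposite sign, Mcm7 and Fen1. For IL-4 in WT signs matched in 19 of 26 genes, for genotype without IL-4 in 22 of 26, and for genotype with IL-4 in 17 of 26. In the last, Dna2, Mcm7 and Fen1 passed 2-fold with another set of the opposite sign.

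**Figure D5:**
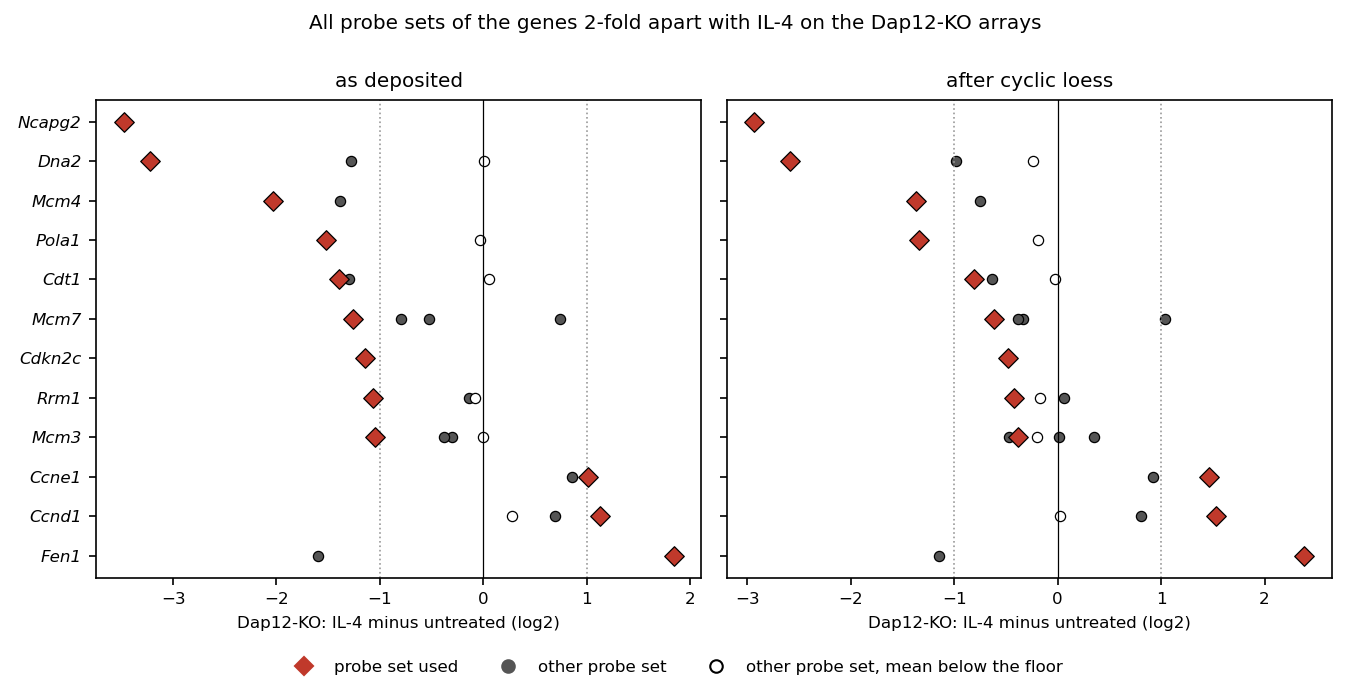
Difference of IL-4 and untreated Dap12-KO arrays (log2) for every probe set of the 12 genes past 2-fold, as deposited (left) and after cyclic loess (right). Red diamonds are the sets used, filled circles other sets and open circles other sets with a mean below the floor. Fen1 has sets at 1.84 and -1.60 as deposited, and 7 of the 12 used sets remain past 2-fold on the right.

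Further genes of the same pathways, from lists that exclude the 55, were counted in the same way. Of 37 further replication genes at the floor, 1 was 2-fold higher and 8 lower with IL-4 on the Dap12-KO arrays, beside the 5.9% and 19.5% of all genes given above, with a median of -0.65, which lay 0.17 below all genes. The lower share is close to that of all genes. The lowest was Gmnn, geminin, an inhibitor of Cdt1, at 7.85 with IL-4 and 9.81 untreated on the Dap12-KO arrays, against 8.16 with IL-4 and 8.63 untreated on the WT arrays. With IL-4 in WT none of the 37 passed 2-fold in either direction. After cyclic loess 1 was higher and 1 lower in Dap12-KO, beside 9.63% and 6.06% of all genes. The median of the 37 was then -0.13, against 0.04 for all genes. Of 58 further mitosis genes measured, 25 reached the floor, and 2 were higher and 6 lower with IL-4 in Dap12-KO, beside the same 5.9% and 19.5%, with a median of -0.16, which lay 0.32 above all genes. After cyclic loess 2 of the 25 were higher and 6 lower, beside 9.63% and 6.06% of all genes, with a median of 0.18. At the ends as deposited were Ncapd3, another condensin II subunit (-2.02), and the spindle midzone kinesin Kif23 (1.67). Espl1, separase, was lower with IL-4 in both genotypes, at -1.65 in Dap12-KO and -1.37 in WT. With IL-4 in Dap12-KO Ncapd3 read 6.47 and Espl1 6.52, both under the median of the genes of other tissues on that array (6.79). With IL-4 in WT Espl1 read 6.24, below the floor. Of 30 further control genes 1 was higher and 10 lower with IL-4 in Dap12-KO, beside 5.9% and 19.5% of all genes. Their median of -0.52 lay 0.03 below all genes. After cyclic loess 3 of the 30 were higher and 6 lower, beside 9.63% and 6.06% of all genes, with a median of -0.08. Among those lower as deposited were the inhibitor Cdkn1b (-2.48) and the cyclin Ccng2 (-2.68), while E2f5 was highest (2.29). Cdkn1b read 5.65 with IL-4, below the floor, and 8.13 untreated on the Dap12-KO arrays. Ccng2 read 8.06 with IL-4 and 10.74 untreated on the Dap12-KO arrays, against 8.48 with IL-4 and 8.85 untreated on the WT arrays, so the untreated Dap12-KO array stands alone at the top.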

How the data were processed

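Total RNA from 4 macrophage cultures was hybridised to 1-colour Affymetrix arrays, 1 a group, as biotin-labelled cRNA made with 2 cycles of amplification, per the labels' protocols, and such amplification favours 3′ ends. The authors deposited 1 log2 value per probe set and array, which their processing notes credit to RMA with no version named. Detection calls were not used here, and arrays have no read depth.

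Titles gave the groups. Gene names came from the platform annotation, updated through the RefSeq gene table of GRCm38.p6, and of 45101 probe sets 34945 named 1 gene. A gene entered a comparison where its mean reached the median of all values, 6.39. Differences of 2 arrays were counted at 2-fold and not tested. For the mean IL-4 effect, lmFit and eBayes of limma 3.58.1 were run in R 4.3.3 with a genotype term, adjusted p-values over 11264 genes and a threshold of 0.05, and the fit was tested on simulated data. Promoter windows were searched for exact letters in Python 3.11.15 with pandas 2.3.3 and numpy 2.4.6, and plots used matplotlib 3.10.9.

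Every listed gene could be named. Of other genes, Tyrobp and at most 3 at each end of a list among those past 2-fold could be. The 55 genes, their roles, the further lists and the tests were chosen with earlier results of these data known. The alternatives were other floors, cyclic loess (3 iterations), quantile normalization, median centring, the median over probe sets, a 3-fold threshold, an intensity trend and no genotype term. Protein sequences were not used here.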

Additional observations from a re-analysis of the deposited data

Results flagged for a closer look

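The differences of IL-4 and untreated arrays had opposite signs in the 2 genotypes, however small in either, and were 2-fold or more apart for 13 of the 38 genes at the floor. Among all 11264 genes 12.3% met the same criterion. The response of Dap12-KO minus that of WT was negative for 10 of the 13 and positive for 3, and none of these differences was tested, since each group is 1 array. Among replication genes it was -2.44 for Mcm4, -1.98 for Pola1, -1.46 for Mcm7, -1.12 for Mcm3 and -1.09 for Mcm6. Among mitosis genes it was -1.67 for Ncaph, -1.59 for Cenpa, -1.27 for Smc2, -1.07 for Smc4, 1.09 for Top2a and 1.02 for Ccna2. Other probe sets at the floor gave 0.75 for Mcm7 and 0.26 for Cenpa, and the median over probe sets gave 0.23 for Cenpa and 0.081 for Smc2. In the control group it was 1.27 for Ccnd1 and -1.14 for Cdkn2c, whose difference in WT was 0.00. After cyclic loess the values of Mcm4 (-1.81), Pola1 (-1.83), Ncaph (-1.45), Cenpa (-1.29) and Ccnd1 (1.63) were still past 2-fold, and that of Mcm3 was -0.50, Mcm6 -0.46, Mcm7 -0.85, Smc2 -0.76, Smc4 -0.44, Cdkn2c -0.52, Top2a 0.94 and Ccna2 0.88. All 13 rest on the narrower Dap12-KO array with IL-4, and the part of its width in them was not tested. In WT alone the IL-4 differences were 1.04 for Ncaph, 0.60 for Cenpa, 0.45 for Pola1, 0.40 for Mcm4, 0.38 for Smc4 and 0.29 for Smc2. They were nearer to 0 for Mcm7 (0.20), Mcm6 (0.12), Mcm3 (0.07), Top2a (-0.23), Ccnd1 (-0.14), Ccna2 (-0.03) and Cdkn2c. An opposite sign at such values does not show an opposed response to IL-4.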

How the results depend on the processing

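The main counts are of the 38 genes at the floor and stand in the report. A floor at the 75th percentile kept 17 of the 54 genes, a floor on the highest array kept 40, and no floor kept all 54. The median over probe sets kept 30, so counts under these choices come from other sets of genes. No share of all genes was set beside the counts for centring, the median over probe sets and the 3-fold threshold. Those counts are thus not read as a result about these genes. With a floor at the 75th percentile, 37 of 54 genes were near background instead of 16. Of the 17 kept at that floor, 1 was higher with IL-4 in Dap12-KO and 0 with IL-4 in WT, beside 126 and 91 of all 6701. In untreated Dap12-KO 0 were higher and 1 lower, beside 212 and 300 of all genes kept. With IL-4, Dap12-KO was lower in 4, beside 1466. For the difference of responses 1 was positive and 8 negative, beside 79 and 1100. After cyclic loess 4 genes were lower with IL-4 in Dap12-KO, 1 was lower in untreated Dap12-KO, 5 were higher and 4 lower in Dap12-KO with IL-4, and 6 were negative for the difference. After quantile normalization 4 were lower with IL-4 in Dap12-KO and 0 higher with IL-4 in WT, beside 9.22% and 1.23% of all genes. In untreated Dap12-KO 0 were lower, beside 2.98% of all genes. With IL-4, Dap12-KO was higher in 5, beside 12.1%, and 6 were negative for the difference, beside 8.31%. Centring left 2 positive for the difference. With the median over probe sets 0 were higher with IL-4 in Dap12-KO, 0 higher and 2 lower with IL-4 in WT, 1 higher in untreated Dap12-KO, 0 higher and 2 lower in Dap12-KO with IL-4, and 1 positive and 7 negative for the difference. That choice turned the sign of Mcm7 (0.072), Dna2 (0.13) and Tpx2 (0.15) in Dap12-KO against WT with IL-4, and of Cenpa (0.23) and Smc2 (0.081) in the difference. At 3-fold 1 was higher and 3 lower with IL-4 in Dap12-KO, 0 and 0 with IL-4 in WT, 1 and 0 in untreated Dap12-KO, 1 and 4 in Dap12-KO with IL-4, and 1 and 6 for the difference. No floor, and a floor on the highest array, moved none of these counts by over 1.5 times. The 2 falls called by limma were 0 with no floor, after cyclic loess, after quantile normalization and with no genotype term, and 0 of all genes fell there too. There was 1 with the floor at the 75th percentile, beside 131 of all 6701 genes. There were 2 with the other 4 alternatives. Beside these stood 141 of 12767 genes with a floor on the highest array and 117 of 11285 after centring. With the median over probe sets there were 138 of 9942, and with an intensity trend 60 of 11264. The cause was not tested. Of the 12 genes past 2-fold with IL-4 in Dap12-KO, 6 stayed past it under all 3 scalings (Ccnd1, Mcm4, Pola1, Fen1, Dna2 and Ncapg2), and all 12 kept their sign. No paired analysis was possible because the labels carry no replicate numbers, and no array could be left out because each group has 1. Precision is limited by having 4 arrays.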
